A study of Mus musculus with 45 samples.

Results

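The cortex and hippocampus of wild-type (WT) mice were compared to describe how gene expression differed between these brain regions in the absence of a Shank3 mutation. The compared samples were the 5 WT cortical and 5 WT hippocampal samples, chosen by their labels, which are 10 of the 45 samples of the series. All came from male C57BL/6J mice at 13 weeks of age, and the labels give the cortical tissue as prefrontal cortex. The mice carried no Shank3 deletion and received no treatment that the labels name, and they were reared with heterozygous (Shank3-HT) and homozygous mutant (Shank3-HM, labelled knock-out) pups. The Shank3 allele of the mutant mice lacks exons 14–16 and gave the HT and HM groups of 5 samples per region that are used at the end. RNA was measured in bulk tissue by sequencing of stranded mRNA libraries, and a normalized count is the number of fragments that the authors estimated for a gene and scaled between samples. In such tissue, fewer cells of a type and less RNA per cell cannot be told apart. In what follows, values of single samples are normalized counts in the order of sample numbers 1 to 5, and a level is a mean ± SD over 5 samples. A difference is hippocampus minus cortex of log2(normalized count + 1), so that positive values are higher in the hippocampus. Each adjusted p value is from limma with Benjamini-Hochberg adjustment over 16618 genes or, where an alternative is named, over the genes it tested. A gene with an adjusted p value under 0.05 is called higher or lower.

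The neocortex is built of layers of excitatory projection neurons with distinct transcription factors, whereas the hippocampus is an older form of cortex that consists of the dentate gyrus and the pyramidal fields CA1, CA2 and CA3. Granule cells of the dentate gyrus send mossy fibers to CA3, CA3 sends axons to CA1, and the dentate gyrus also holds a niche in which neurons are born in adult life. The hippocampus borders on the ventricles, whose walls carry ciliated ependymal cells and whose choroid plexus secretes cerebrospinal fluid, and it lies beneath myelinated fiber tracts.

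The distance between samples, taken as the root mean square log2 difference over all genes tested, was 0.451 to 0.515 between cortical samples and 0.445 to 0.627 between hippocampal samples. Between a cortical and a hippocampal sample it was 0.874 to 0.9998, so that no pair from different regions was as close as any pair from the same region. Hippocampal sample 1 stood apart, since its distances to the other hippocampal samples were 0.549 to 0.627. In that sample, the fifth of genes with the shortest transcripts lay 0.22 above the median of the hippocampal samples on the log2 scale, and the fifth with the longest lay 0.24 below it (-0.24), while the same medians in the other 9 samples were -0.0329 to 0.0417. Without hippocampal sample 1, 7437 genes were called, compared with 7031 with all samples. Hippocampal sample 4 stood apart by its genes of the choroid plexus, which are given further on. The sums of normalized counts were 27870411 to 28479721 in the cortex and 26118607 to 27380382 in the hippocampus, sums that depend on how the authors scaled the samples, and the depth of sequencing is unknown. The labels name no batch.

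Of the 16618 genes tested, 7031 (42.3%) differed between the regions. Higher in the hippocampus were 3489 genes (21%), and higher in the cortex were 3542 (21.3%). With the samples scaled to equal totals, the hippocampus held 61.3% of the calls instead of 49.6%, with 4520 genes higher there and 2853 higher in the cortex, and that scaling moved the median difference of all genes from 0.01 to 0.08. Small differences made up much of this count, as 3113 of the called genes differed by less than 0.5 on the log2 scale and the median size was 0.566. A difference of at least 1, which is a change of 2-fold or more, was called for 942 genes that were higher in the hippocampus (5.67%) and 894 that were higher in the cortex (5.38%). Differences of at least 3 were less even, with 197 genes higher in the hippocampus and 76 higher in the cortex. All 5 hippocampal samples lay above all 5 cortical samples for 2580 genes (15.5%), and all 5 cortical samples lay above for 2769 (16.7%), together 32.2% of genes. Long intergenic non-coding RNAs were 66 of the genes higher in the cortex by at least 1 and 40 of those higher in the hippocampus, out of 476 tested.

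**Figure D1:**
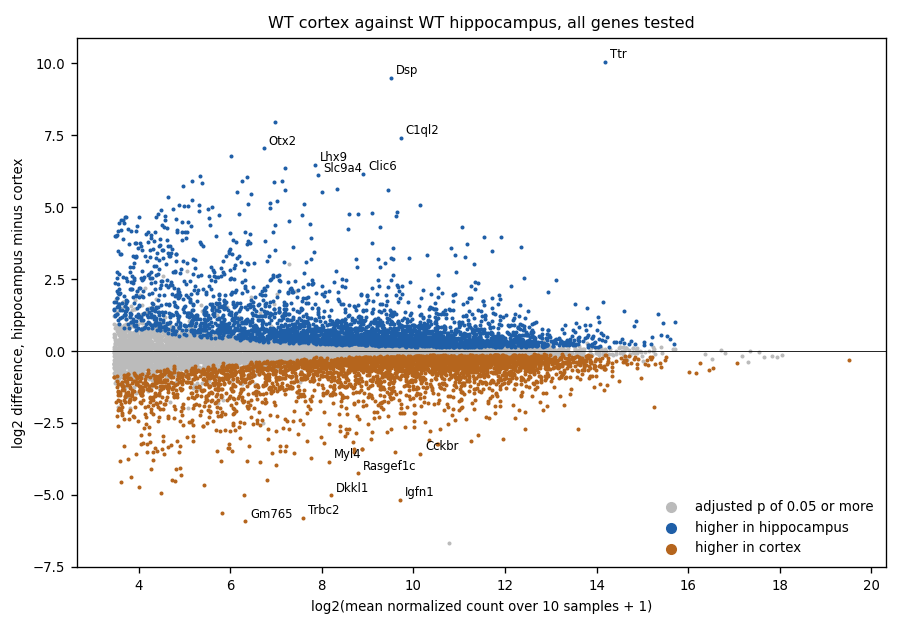
Difference between WT hippocampus and WT cortex (vertical axis, log2 scale) against the mean level over the 10 samples (horizontal axis, log2 of normalized count + 1), with a point per gene. Blue and brown points are the 3489 genes higher in the hippocampus and the 3542 higher in the cortex, grey points did not pass, and among called genes the largest differences in the hippocampus (Ttr 10.05, Dsp 9.50) exceeded the largest in the cortex (Gm765 -5.92, Trbc2 -5.78).

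The 15 genes with the largest hippocampal excess at a level of at least 100 normalized counts comprised genes of the dentate gyrus, genes of the choroid plexus and ventricular wall, and genes of neither list. Dsp, which encodes the desmosomal plaque protein desmoplakin and marks dentate granule cells, was at 1.14, 0.789, 1.33, 2.67 and 0 in the cortex and 1479.7, 1684, 1545, 1417 and 1178 in the hippocampus. Its groups were far apart, and the difference was 9.50 ± 0.28 (SE, adjusted p = 1.29e-11). C1ql2, a secreted C1q-like protein that mossy fibers deposit at their synapses, was at 15.2, 13.2, 3.68, 11.6 and 5.66 in the cortex and 2070.1, 1720.04, 1542, 1383 and 1693 in the hippocampus. All cortical samples were below the lowest hippocampal sample, with a difference of 7.41 ± 0.29 (SE, adjusted p = 2.52e-10). Gm26644, a long intergenic non-coding RNA at chr19:44685811-44695460 (GRCm38), was listed at 0 in all 5 cortical samples and at 324, 238, 249, 209 and 239 in the hippocampal samples. Lhx9, a LIM homeodomain transcription factor that is also on the list of thalamic markers, was at 3.78, 3.59, 5.73, 0.893 and 11.8 in the cortex and 436, 477, 487, 403 and 482 in the hippocampus, with a difference of 6.47 ± 0.37 (SE, adjusted p = 9.37e-09). Its hippocampal values were close to each other, unlike those of the choroid plexus genes. Slc9a4, a sodium-proton exchanger, had levels of 7.34 ± 6.15 in the cortex and 473 ± 89.3 in the hippocampus (6.12 ± 0.41, adjusted p = 4.17e-08). Rtl3, a gene derived from a retrotransposon Gag protein, was at 0.220 ± 0.493 in the cortex and 128 ± 31.5 in the hippocampus and differed by 6.76 ± 0.31 (SE, adjusted p = 1.14e-09). Syna, the retrovirus-derived envelope protein syncytin-A, was at 1.59 ± 0.758 in the cortex and 149 ± 26.02 in the hippocampus and differed by 5.89 ± 0.26 (SE, adjusted p = 6.23e-10).

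The other genes with the largest hippocampal excess were Ttr, Otx2, Slc4a5, Clic6, Cldn2, Kcne2, Mfrp and Ccdc153. The first 6 are on the choroid plexus list and Ccdc153 is on the ependymal list, and their values are given with those lists. Mfrp, a membrane frizzled-related protein on neither list, was at 4.08, 10.8, 4.74, 2.58 and 3.27 in the cortex and 53.6, 44.9, 561, 1936 and 598 in the hippocampus, with a difference of 5.64 ± 0.86 (SE, adjusted p = 0.000117). It was highest in hippocampal sample 4, as were the choroid plexus genes.

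Among the 15 genes with the largest cortical excess were receptors, secreted proteins and genes best known from other tissues. Cckbr encodes the cholecystokinin B receptor, the main brain receptor of that neuropeptide, and was at 2016, 2080.4, 2064, 2052 and 2196 in the cortex and 191, 172, 144, 167 and 210.2 in the hippocampus. The groups did not overlap, the level was 11.8-fold higher in the cortex and the difference was -3.56 ± 0.09 (SE, adjusted p = 5.98e-12). Dkkl1, a secreted relative of the Dickkopf inhibitors of Wnt signalling, was at 614, 529, 587, 623 and 499 in the cortex and 19.3, 15.1, 15.1, 11.2 and 26.999 in the hippocampus. Its difference was -4.997 ± 0.19 (SE, adjusted p = 1.78e-10), and the lowest cortical value was far above the highest hippocampal value. Trbc2, the constant segment of the T-cell receptor beta chain, was at 368, 478, 356, 345 and 343 in the cortex and 6.76, 3.32, 3.41, 8.38 and 9.69 in the hippocampus. This was a difference of -5.78 ± 0.26 (SE, adjusted p = 8.29e-10), while Cd6, a surface receptor of T cells, was at 102 ± 23.4 in the cortex and 6.66 ± 2.67 in the hippocampus and differed by -3.80 ± 0.30 (SE, adjusted p = 1.97e-07). Igfn1, an immunoglobulin-like and fibronectin domain protein, was at 1921, 1550.2, 1842, 1314 and 1473 in the cortex and 38.5, 9.37, 93.9, 76.9 and 58.5 in the hippocampus, and hippocampal values varied several-fold between samples (-5.16 ± 0.45, SE, adjusted p = 6.19e-07). Rasgef1c, a guanine nucleotide exchange factor for Ras-type GTPases, was at 838 ± 69.8 in the cortex and 44.99 ± 15.1 in the hippocampus and differed by -4.24 ± 0.18 (SE, adjusted p = 5.76e-10). Myl4, the myosin light chain of heart atria, was at 528 ± 33.6 in the cortex and 37.02 ± 10.8 in the hippocampus and differed by -3.85 ± 0.18 (SE, adjusted p = 1.03e-09). The others were Gm765 (-5.92), Gm10635 (-5.62), A830009L08Rik (-4.99), Krt80 (-4.48), Ovol2 (-3.97), Mei1 (-3.85), Olfr78 (-3.81) and Adam33 (-3.70), all higher in the cortex. Among these, Krt80 is a keratin, Ovol2 a zinc finger transcription factor, Mei1 a meiotic gene, Olfr78 an olfactory receptor gene and Adam33 a membrane metalloprotease.

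Promoter sequence of RefSeq (GRCm38.p6) was matched by symbol for 12 of the 15 hippocampal and 9 of the 15 cortical genes. The 250 bases before the start site are shown for Dsp and Cckbr, as a hippocampal and a cortical gene with tight values, 5′ to 3′ on the gene's strand, with GC boxes (GGGCGG or its reverse complement CCGCCC) in capitals. The Dsp window is at chr13:38151044-38151293 on the + strand and overlaps an annotated exon of the gene Gm10129, and the Cckbr window is at chr7:105425481-105425730 on the + strand.

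Dsp: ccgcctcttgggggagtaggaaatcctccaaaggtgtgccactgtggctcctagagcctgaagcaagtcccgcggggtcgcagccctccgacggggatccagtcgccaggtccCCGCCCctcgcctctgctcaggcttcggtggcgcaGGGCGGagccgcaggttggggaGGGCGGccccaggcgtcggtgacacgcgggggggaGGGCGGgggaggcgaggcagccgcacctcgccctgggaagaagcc

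Cckbr: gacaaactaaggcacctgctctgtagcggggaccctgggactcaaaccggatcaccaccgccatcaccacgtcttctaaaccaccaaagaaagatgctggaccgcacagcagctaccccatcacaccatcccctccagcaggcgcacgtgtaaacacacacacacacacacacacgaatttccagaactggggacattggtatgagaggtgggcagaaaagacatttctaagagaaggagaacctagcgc

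The Dsp window held 4 GC boxes and 22 CpG dinucleotides at 72.4% G and C, and the Cckbr window held 0 GC boxes and 9 CpG dinucleotides at 53.6%. These windows do not stand for their groups, as the windows of the hippocampal genes held 1 to 22 CpG dinucleotides (median 5.5) and those of the cortical genes 1 to 27 (median 9), beside a median of 6 over all windows. The share of G and C was 42% to 72.4% (median 53%) for the hippocampal and 34.8% to 70% (median 52.4%) for the cortical genes, beside a median of 52% over all windows. A GC box was found in 3 of 12 windows of the hippocampal genes and 1 of 9 of the cortical genes, compared with 32.9% of all 27025 windows of this length. The E-box CAGATG (reverse complement CATCTG) was in 2 and 1 of these windows and in 14.5% of all. The TATA box letters TATAAA (reverse complement TTTATA) were in 3 and 1 and in 13% of all. These are matches of letters in short windows.

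Marker genes of the hippocampal subfields were higher in the hippocampus for the most part. Of 17 dentate granule cell markers tested, 12 were higher in the hippocampus, 0 were higher in the cortex and 5 did not pass, against 21% and 21.3% of all genes. The median difference of the list was 1.47, and that of all genes tested was 0.01. The shares of 21% and 21.3% over all genes are also the background for the counts of every list below. Prox1, the homeodomain transcription factor that specifies granule cells, was at 305, 388, 336, 345 and 353 in the cortex and 2935, 4037, 3949, 3209.7 and 3425 in the hippocampus. The groups did not overlap (3.34 ± 0.09, SE, adjusted p = 1.03e-11). Lct, the gene of lactase, was at 32.04 ± 23.7 in the cortex and 1363 ± 117 in the hippocampus and differed by 5.59 ± 0.31 (SE, adjusted p = 6.06e-09), and Il16, a cytokine precursor, differed by 4.32. Tdo2, a tryptophan dioxygenase, Glis3, a zinc finger transcription factor, and Dock10, an exchange factor for small GTPases, were higher by 3.04, 2.26 and 1.98. Several genes known from granule cells did not pass the test. Calb1, the calcium buffer calbindin, was at 2953 ± 149 in the cortex and 3071 ± 232 in the hippocampus (0.05, adjusted p = 0.496), and C1ql3, a relative of C1ql2, was at 2309 ± 275 in the cortex and 2329 ± 207 in the hippocampus (0.02, adjusted p = 0.898).

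In the CA1 list, 6 of 8 genes were higher in the hippocampus and 1 was higher in the cortex (median 1.68). Fibcd1, an acetyl-recognizing receptor with a fibrinogen domain, was at 238, 198, 215, 176 and 201 in the cortex and 4682, 3717, 4311, 3688 and 3864 in the hippocampus. Every hippocampal sample was above every cortical sample, with a difference of 4.29 ± 0.09 (SE, adjusted p = 1.3e-12). Spink8, a serine protease inhibitor, was at 12.8 ± 3.78 in the cortex and 364 ± 85.3 in the hippocampus (4.73 ± 0.21, SE, adjusted p = 6.52e-10), and Gpr161, an orphan receptor of primary cilia, was higher by 3.33. Wfs1, an endoplasmic reticulum protein that also marks CA1, was at 2354 ± 356 in the cortex and 2651 ± 196 in the hippocampus and did not pass (0.18, adjusted p = 0.141). Wfs1 was called with equal totals (0.26, adjusted p = 0.0403) and without cortical sample 5 (0.25, adjusted p = 0.0312). Mpped1 was the exception and was higher in the cortex (-0.38, adjusted p = 4.25e-05).

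Of 9 CA2 genes, 8 were higher in the hippocampus (median 1.37). Amigo2, an adhesion molecule, was at 197, 197, 229, 196 and 218 in the cortex and 917, 816, 759, 714 and 802 in the hippocampus, and Rgs14, a regulator of G protein signalling that restrains plasticity in CA2, was at 889 ± 50.9 in the cortex and 2427 ± 358 in the hippocampus. They differed by 1.94 ± 0.09 (SE, adjusted p = 6.95e-10) and 1.44 ± 0.09 (SE, adjusted p = 2.23e-08). Necab2, a calcium-binding protein, Cacng5, an auxiliary subunit of AMPA receptors, and Stard5, a lipid transfer protein, were higher by 1.97, 1.46 and 1.37. Pcp4, a calmodulin regulator found in CA2 and in deep cortical layers, went the other way, at 3074 ± 183 in the cortex and 1695 ± 229 in the hippocampus (-0.87 ± 0.09, SE, adjusted p = 1.89e-06).

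Of 12 CA3 genes, 10 were higher in the hippocampus and 1 was higher in the cortex (median 1.46). Homer3, a postsynaptic scaffold, was at 164, 135, 120.2, 129.6 and 183 in the cortex and 1441, 1284, 1543, 1227 and 1272 in the hippocampus. The groups did not overlap (3.21 ± 0.12, SE, adjusted p = 1.09e-10). Iyd, an iodotyrosine deiodinase, and St18, a zinc finger transcription factor, were higher by 4.38 and 3.18. Grik4, the kainate receptor subunit of mossy fiber synapses, was at 672 ± 63.4 in the cortex and 1628 ± 66.6 in the hippocampus (1.28 ± 0.07, SE, adjusted p = 5.14e-09). Coch, the extracellular protein cochlin, was higher in the cortex, at 904 ± 82.3 in the cortex and 224 ± 104 in the hippocampus (-2.10 ± 0.21, SE, adjusted p = 2.57e-06). Of 7 markers of hilar mossy cells, 4 were higher in the hippocampus (median 1.15), namely Csf2rb2 (2.60), Calb2 (1.99), Nmb (1.52) and Drd2 (1.15). In 1 fit of all 9 groups, Drd2 did not pass (adjusted p = 0.0541). Calb2 encodes calretinin and is also found in interneurons and in the thalamus.

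**Figure D2:**
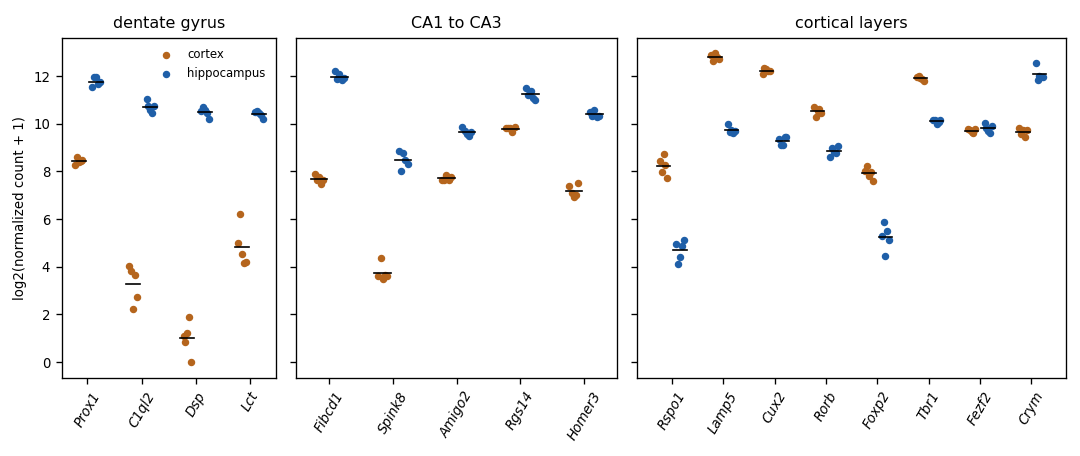
Normalized counts of marker genes (vertical axis, log2 of normalized count + 1) in the 5 WT cortical samples (brown) and the 5 WT hippocampal samples (blue), with black lines at the means. The groups of the dentate and CA genes shown do not overlap and are higher in the hippocampus, and among genes of cortical layers, Rspo1 to Tbr1 was higher in the cortex while Fezf2 overlapped and Crym was higher in the hippocampus. The genes were picked from the lists. List members that did not pass (Calb1, C1ql3, Wfs1) or were higher in the cortex (Mpped1, Pcp4, Coch) are not shown.

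Of 12 genes of the upper cortical layers, 9 were higher in the cortex and 3 were higher in the hippocampus (median -1.44). Cux2, a homeodomain transcription factor of layers 2 to 4, was at 4293, 5240.1, 5081, 4678 and 4705 in the cortex and 649, 557, 549, 702 and 687 in the hippocampus. The cortical level was 7.63-fold higher, with a difference of -2.93 ± 0.08 (SE, adjusted p = 1.03e-11). Lamp5, a membrane protein of upper-layer neurons and of neurogliaform interneurons, was at 7098 ± 685 in the cortex and 857 ± 92.2 in the hippocampus (-3.05 ± 0.08, SE, adjusted p = 7.74e-12). Rspo1, a secreted enhancer of Wnt signalling, was at 349.6, 250.4, 419, 309 and 211 in the cortex and 29.8, 16.6, 20.3, 28.003 and 33.8 in the hippocampus. The ranges were separate, and the difference was -3.53 ± 0.22 (SE, adjusted p = 2.21e-08). Rorb, a nuclear receptor of layer 4, was at 1477 ± 172 in the cortex and 463 ± 58.9 in the hippocampus (-1.67 ± 0.10, SE, adjusted p = 1.43e-08). Other upper-layer genes higher in the cortex by at least 1 were Pou3f2 (-2.15), Otof (-1.58), Rasgrf2 (-1.31) and Cux1 (-1.19). Going the other way were Mdga1 (2.65), Scnn1a (1.70) and Matn2 (1.26), with Mdga1, a membrane-anchored inhibitor of neuroligin binding, at 414 ± 76.3 in the cortex and 2569 ± 189.8 in the hippocampus.

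Genes of the deep cortical layers were divided. Of 24 tested, 9 were higher in the hippocampus, 7 were higher in the cortex and 8 did not pass, with a median of 0.04. Tbr1, a T-box transcription factor of layer 6, was at 3935, 4044, 3923, 3793 and 3523 in the cortex and 1132, 1129.8, 1010.5, 1074 and 1123 in the hippocampus. Hippocampal values were lower in all samples (-1.81 ± 0.06, SE, adjusted p = 2.37e-11). Foxp2, a forkhead factor of corticothalamic neurons, was at 243 ± 39.9 in the cortex and 39.2 ± 13.9 in the hippocampus (-2.66 ± 0.23, SE, adjusted p = 4.75e-07), and Deptor, an inhibitor of mTOR, Cplx3, a complexin of subplate neurons, and Syt6, a synaptotagmin, were higher in the cortex (-1.96, -1.55 and -1.48). Fezf2, the zinc finger selector of subcerebral neurons, was at 836 ± 39.7 in the cortex and 896 ± 103 in the hippocampus and did not pass (0.09, adjusted p = 0.371). Crym, a thyroid hormone-binding protein, was at 899, 758, 844, 689 and 858 in the cortex and 6029, 3622, 4156, 3963 and 4003 in the hippocampus. That deep-layer gene was 5.38-fold higher in the hippocampus (2.41 ± 0.12, SE, adjusted p = 2.46e-09), and Trhr, a receptor of thyrotropin-releasing hormone, was also higher there (1.94). Of the 6 claustral genes, Nr4a2 (1.98), Synpr (1.09), Lxn (0.82) and Ntng2 (0.71) were higher in the hippocampus and Oprk1 (-1.70) and Gnb4 (-0.30) were higher in the cortex. The call of Gnb4 was lost in 1 fit of all 9 groups (adjusted p = 0.101). Nr4a2 encodes an orphan nuclear receptor and was at 354 ± 93.8 in the cortex and 1362 ± 137 in the hippocampus.

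Of 72 transcription factors of the forebrain, 29 (40.3%) were higher in the hippocampus, 35 (48.6%) were higher in the cortex and 8 did not pass (median -0.11). Most thus differed between the regions, in either direction, where 42.3% of all genes did. Mef2c, a MADS-box factor of activity-dependent synapse control, was at 23251, 22782, 21633, 19883 and 19590.4 in the cortex and 2725, 3678, 3222, 3168 and 3465 in the hippocampus. The cortical level was 6.59-fold the hippocampal level (-2.72 ± 0.08, SE, adjusted p = 1.23e-11). The members of its family did not move together, as Mef2d (-0.28) was higher in the cortex and Mef2a (0.42) was higher in the hippocampus, compared with -2.72 for Mef2c. Zbtb20, a zinc finger repressor required for CA1 identity, was at 2318, 2828, 2714, 3338 and 3501 in the cortex and 6273, 15878, 14326, 13587 and 13471 in the hippocampus. Hippocampal values exceeded cortical values in all samples (2.06 ± 0.21, SE, adjusted p = 2.47e-06). Nhlh2, a basic helix-loop-helix factor, differed by 4.49, and the LIM-only factors Lmo1, Lmo3 and Lmo4 differed by 2.46, 1.04 and -0.92, the last of them higher in the cortex. Neurod1, Neurod2 and Neurod6, helix-loop-helix factors of excitatory neurons, were higher in the hippocampus by 1.20, 0.98 and 1.17. In 1 fit of all 9 groups, the calls of Neurod2 (adjusted p = 0.16) and Neurod6 (adjusted p = 0.177) were lost, as was that of Emx1 given next (adjusted p = 0.265). The COUP factor Nr2f2 was higher in the hippocampus (1.91), and Nr2f1 did not pass (-0.12, adjusted p = 0.171). Nr2f1 was called without hippocampal sample 1 (-0.17, adjusted p = 0.0268) and without hippocampal samples 1 and 4 together (-0.17, adjusted p = 0.044). Of the paired forebrain factors Emx1 and Emx2, Emx1 was higher in the cortex (-0.80) and Emx2 in the hippocampus (0.28), the latter with overlapping groups. The call of Emx2 was lost when cortical sample 1, 3, 4 or 5 or hippocampal sample 1, 2, 3 or 5 was left out (adjusted p = 0.0532 to 0.105). Emx2 also lost its call without a trend of the variance with the level (adjusted p = 0.0504) and with quantile normalization (adjusted p = 0.0882).

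Of 31 interneuron genes tested, 7 were higher in the hippocampus, 17 were higher in the cortex and 7 did not pass (median -0.34). Vip, a vasoactive neuropeptide of disinhibitory interneurons, was at 1184, 1000.3, 1174, 936 and 1102 in the cortex and 349.7, 318, 281, 256 and 361 in the hippocampus. All hippocampal samples were below the cortical samples (-1.79 ± 0.10, SE, adjusted p = 1.09e-08). Pvalb, the calcium buffer of fast-spiking cells, was at 1046 ± 174 in the cortex and 435 ± 83.97 in the hippocampus (-1.27 ± 0.14, SE, adjusted p = 5.93e-06), and Sst, somatostatin, was at 3830.01 ± 285 in the cortex and 3739 ± 402 in the hippocampus (-0.04, adjusted p = 0.721). The neuropeptide genes Crh, Npy and Tac2 were higher in the cortex (-1.97, -1.30 and -1.11). Gad1 and Gad2, which make GABA, and Slc32a1, which loads it into vesicles, were higher in the cortex by smaller amounts (-0.24, -0.29 and -0.51). The call of Gad1 was lost with quantile normalization (-0.11, adjusted p = 0.128) and that of Gad2 in 1 fit of all 9 groups (-0.29, adjusted p = 0.14). Nos1, a nitric oxide synthase, and Kit, a receptor tyrosine kinase, were higher in the hippocampus (1.42 and 1.43), as were Calb2 and Prox1, which are also on the mossy cell and granule cell lists.

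Of 13 genes of adult neurogenesis, 9 were higher in the hippocampus, 1 was higher in the cortex and 3 did not pass (median 1.02). Igfbpl1, a marker of neural progenitors and immature neurons, was at 3.54, 6.23, 1.01, 3.96 and 0 in the cortex and 44.3, 81.3, 51.1, 58.7 and 48.4 in the hippocampus. Cortical values were close to 0 (4.15 ± 0.47, SE, adjusted p = 7.85e-06). Eomes, a T-box factor of intermediate progenitors, was at 1.21 ± 0.757 in the cortex and 27.6 ± 30.7 in the hippocampus (3.29 ± 0.57, SE, adjusted p = 0.000334), and Draxin, a guidance protein, and Neurog2, a proneural factor, were higher in the hippocampus (2.41 and 2.10). The call of Neurog2 was lost when cortical sample 4 or 5 or hippocampal sample 1, 2 or 3 was left out (adjusted p = 0.0504 to 0.0665). Neurog2 also lost its call with a pseudocount of 0.1 (adjusted p = 0.0517) and without hippocampal samples 1 and 4 together (adjusted p = 0.0521). The cell cycle genes Top2a, a topoisomerase, and Mki67, which encodes Ki-67, were higher in the hippocampus (1.96 and 1.26). Dcx, the microtubule protein doublecortin of immature neurons, was at 1165, 1499.6, 1284, 1206 and 1258 in the cortex and 364, 823, 615, 571 and 762 in the hippocampus. It was higher in the cortex (-1.08 ± 0.17, SE, adjusted p = 0.000186), in the opposite direction to the genes above, and Nes, which encodes nestin, did not pass (-0.04, adjusted p = 0.874).

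All 20 oligodendrocyte genes were higher in the hippocampus, with differences of 0.56 to 1.27 and a median of 1.01. Mbp, myelin basic protein, was at 32622, 35170.2, 37007, 41706 and 32126 in the cortex and 69053, 74879, 72797, 71898 and 71342 in the hippocampus. The groups did not overlap, and the hippocampal level was 2.02-fold higher (1.02 ± 0.07, SE, adjusted p = 5.22e-08). Mobp, a myelin protein, Cldn11, a claudin of myelin, and Trf, transferrin, were higher by 1.19, 1.23 and 1.27. Of 10 precursor genes, 5 were higher in the hippocampus and 0 in the cortex (median 0.35). With equal totals, 8 precursor genes were higher in the hippocampus. Pdgfra, the growth factor receptor of precursors, did not pass (0.20, adjusted p = 0.0503) but was called under several other normalizations, filters and models (adjusted p = 0.00825 to 0.0492) and without cortical sample 2 (0.23, adjusted p = 0.0402) or hippocampal sample 1 (0.27, adjusted p = 0.00199), whereas Enpp6, which marks newly formed oligodendrocytes, was higher in the hippocampus (0.92).

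Of 20 astrocyte genes (median 0.01), 9 did not pass. In the hippocampus 5 were higher (25%) and in the cortex 6 (30%), against 21% and 21.3% of all genes. With equal totals, 3 were higher in the cortex. Gfap, the intermediate filament of astrocytes, was at 1621, 1653, 1606, 1408 and 1724 in the cortex and 10021, 9543, 8699, 9353 and 8813 in the hippocampus. It was 5.79-fold higher in the hippocampus (2.54 ± 0.06, SE, adjusted p = 4.9e-12) and was the only member of that list called with a difference of at least 1. Aqp4, a water channel of astrocyte endfeet, was at 2814 ± 60.6 in the cortex and 3801 ± 327 in the hippocampus (0.43), while Slc1a2 and Slc1a3, the glutamate transporters, differed by -0.58 (adjusted p = 0.000326) and 0.02 (adjusted p = 0.838). The call of Slc1a2 was lost with quantile normalization (-0.30, adjusted p = 0.101). Aldh1l1, a folate enzyme used as a general astrocyte marker, was higher in the cortex (-0.92 ± 0.06, SE, adjusted p = 2.73e-08). None of the 20 microglial genes passed limma's test at an adjusted p value under 0.05 in either direction (median -0.07), and 1 or 2 of them were called under several of the alternatives. At an unadjusted p value under 0.05 there were 2 microglial genes. Cx3cr1, the fractalkine receptor, was at 1218 ± 122 in the cortex and 1122 ± 119 in the hippocampus (-0.12, adjusted p = 0.31), and P2ry12, a purine receptor, was at 1079.8 ± 175 in the cortex and 1096 ± 152 in the hippocampus (0.02, adjusted p = 0.883). Of 19 endothelial and mural cell genes, 8 were higher in the cortex and 2 in the hippocampus (median -0.19), with Flt1, a receptor of vascular growth factor, at -0.48 and Cldn5, a claudin of the blood-brain barrier, at -0.13 (adjusted p = 0.332). Without hippocampal sample 3, 4 endothelial and mural genes were higher in the hippocampus. Of 12 fibroblast genes, 5 were higher in the hippocampus, including Dcn (2.48), a proteoglycan also found in CA1 neurons, while the fibroblast factor Foxc1 did not pass (0.06, adjusted p = 0.815). The summed level of the fibroblast list was 4968, 4242, 4582, 4552 and 5590.3 in the cortex and 6729.7, 8031, 6216, 15319 and 9009 in hippocampal samples 1 to 5, highest in sample 4, which also had the highest choroid plexus genes. Slc13a4 is on both of these lists. The median of the fibroblast list was 0.52, and 0.34 without hippocampal samples 1 and 4, where 5 genes were higher in the hippocampus. The 5 blood cell genes, among them Hbb-bs, a beta globin (-0.12, adjusted p = 0.643), did not pass in limma's test, and 0 had an unadjusted p value under 0.05, while without hippocampal samples 1 and 4, 1 was higher in the cortex.

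**Figure D3:**
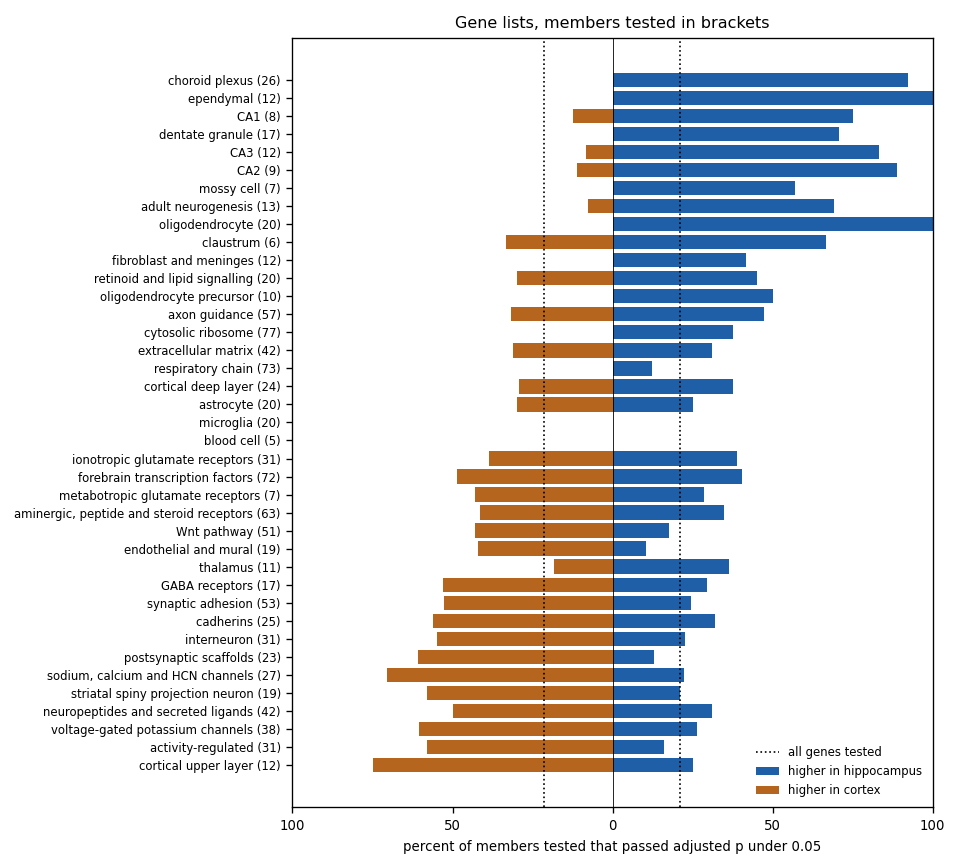
Percent of the members of each gene list that were higher in the WT hippocampus (blue, to the right) or higher in the WT cortex (brown, to the left) at an adjusted p value under 0.05, with the number of members tested in brackets and lists ordered by their median difference. Dotted lines mark the 21% and 21.3% of all 16618 genes called in each direction.

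Genes of the choroid plexus had the largest differences of any list and also the largest variation between hippocampal samples. Of 26 genes tested, 24 were higher in the hippocampus and 0 in the cortex (median 4.07). The summed level of the list was 16684, 12575, 65687, 203419 and 66174 in hippocampal samples 1 to 5 and 7998, 7360.2, 8295, 7871 and 7774 in the cortical samples. All 26 genes were highest in hippocampal sample 4 and lowest in sample 1 or 2. Ttr, the thyroid hormone carrier transthyretin that the choroid plexus secretes, was at 6.19, 1.004, 21.7, 92.4 and 32.8 in the cortex and 5719, 2097, 31385, 113039.8 and 32301 in the hippocampus. The groups did not overlap, but the highest hippocampal value was many times the lowest, and the error of the difference was correspondingly large (10.05 ± 1.08, SE, adjusted p = 4.55e-06). The low cortical values ranked the samples in the same order as the hippocampal values of the same numbers, at 0.0479% to 0.108% of them, and the cause of this was not tested. Clic6, an intracellular chloride channel protein, was at 6.30, 6.55, 9.73, 8.72 and 7.71 in the cortex and 219.6, 202, 955, 2509 and 868 in the hippocampus. Sample 4 was again highest, and the difference was 6.16 ± 0.55 (SE, adjusted p = 7.59e-07). Otx2, the homeodomain factor that maintains choroid plexus epithelium, was at 0.303 ± 0.678 in the cortex and 211 ± 184 in the hippocampus (7.06 ± 0.51, SE, adjusted p = 9.42e-08).

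The transporters and channels of the epithelium followed, with Slc4a5, a bicarbonate cotransporter, at 6.35, Kcne2, a potassium channel subunit, at 5.89, Cldn2, a tight junction protein, at 5.89 and Folr1, a folate receptor, at 5.58. Kl, which encodes klotho, was at 46.2, 52.5, 40.9, 43.6 and 59.8 in the cortex and 681, 683, 2146, 5248 and 2236 in the hippocampus. All cortical samples were lower (5.06 ± 0.45, SE, adjusted p = 6.81e-07). Enpp2, which encodes autotaxin and is also expressed by oligodendrocytes, was at 5756, 5283, 6049.8, 5680.2 and 5319.7 in the cortex and 6303, 5588, 21702, 58697 and 20995 in the hippocampus. The lowest hippocampal sample lay within the cortical range, and the difference was 1.48 ± 0.49 (SE, adjusted p = 0.0263). The call of Enpp2 was lost when cortical sample 5 or hippocampal sample 3 or 5 was left out (adjusted p = 0.0505 to 0.0603). Enpp2 also lost its call without a trend of the variance with the level (adjusted p = 0.0618). Igfbp2, a binding protein of insulin-like growth factors that meninges also express, did not pass (0.66 ± 0.28, SE, adjusted p = 0.0755). Igfbp2 was called without hippocampal sample 1 (0.79, adjusted p = 0.0366), without hippocampal sample 2 (0.83, adjusted p = 0.0266) and without hippocampal samples 1 and 4 together (0.40, adjusted p = 0.0338). Of the 942 genes higher in the hippocampus by at least 1, 128 had their highest value in hippocampal sample 4 at 1.5-fold or more above the next sample, compared with 5 to 8 for each other hippocampal sample. Without hippocampal samples 1 and 4, an alternative chosen after the data were seen, 885 genes were higher in the hippocampus by at least 1 and 898 in the cortex, and 25 of the choroid plexus genes were higher in the hippocampus.

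The ependymal genes varied less, as the highest summed level of a hippocampal sample was 1.56-fold the lowest. All 12 were higher in the hippocampus, with a median of 2.96 and a summed level of 169 to 239.6 in the cortex and 1116 to 1736 in the hippocampus. Foxj1, the master regulator of motile cilia, was at 73.5, 60.01, 95.8, 111 and 103 in the cortex and 384, 353, 371, 596 and 402 in the hippocampus. Sample 4 was highest here too, and all hippocampal samples were above the cortical samples (2.25 ± 0.18, SE, adjusted p = 2.78e-07). Ccdc153, a coiled-coil protein of ciliated cells, was at 4.61, 0.675, 0, 0 and 7.65 in the cortex and 168, 180.4, 137, 209 and 110.5 in the hippocampus, with a difference of 6.04 ± 0.55 (SE, adjusted p = 9.05e-07). Dnah11, an axonemal dynein, Tmem212 and Spag17, a protein of the ciliary central apparatus, were higher by 5.02, 5.72 and 4.59.

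**Figure D4:**
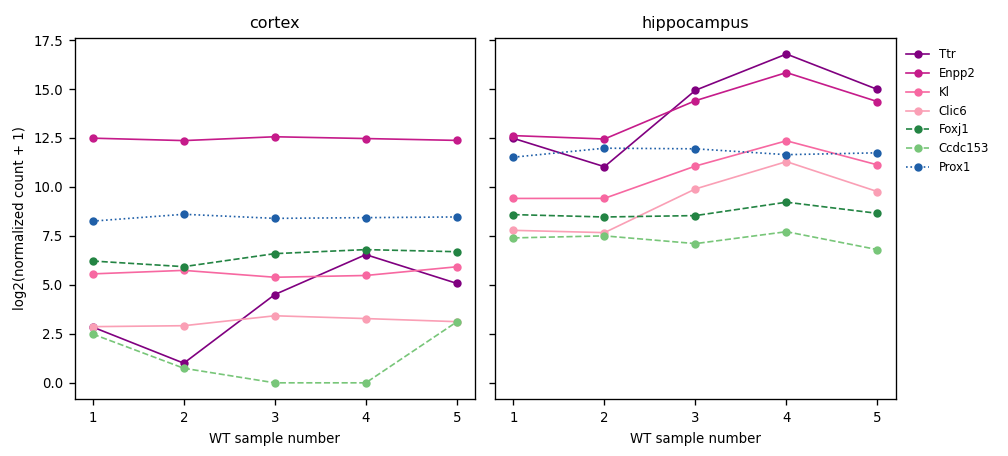
Normalized counts (vertical axis, log2 of normalized count + 1) of choroid plexus genes (solid lines), ependymal genes (dashed) and the granule cell gene Prox1 (dotted) in each WT sample (horizontal axis). The choroid plexus genes rise and fall together among hippocampal samples and peak in sample 4, whereas Foxj1, Ccdc153 and Prox1 vary less. Lines join samples only to guide the eye.

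Genes of neighbouring tissues were measured as well. Of 19 genes of striatal spiny projection neurons, 4 were higher in the hippocampus, 11 were higher in the cortex and 4 did not pass (median -0.37), and the summed level was 24729.5 to 27185 in the cortex and 20696 to 21928 in the hippocampus. In 1 fit of all 9 groups, 2 were higher in the hippocampus and 5 in the cortex. Scn4b, a sodium channel subunit, was at 3341, 3013, 3622, 3567 and 2704 in the cortex and 642, 625, 633, 573 and 589 in the hippocampus, higher in the cortex (-2.40 ± 0.08, SE, adjusted p = 4.74e-11). Drd1 and Drd2, the main dopamine receptors, went in opposite directions (-0.92 and 1.15). The call of Drd2 was lost in 1 fit of all 9 groups (adjusted p = 0.0541). Of 11 thalamic genes, 4 were higher in the hippocampus and 2 in the cortex (median -0.20, and -0.11 without hippocampal sample 1). Higher in the hippocampus were Lhx9 (6.47), Calb2 (1.99), Prkcd (1.40) and Plekhg1 (0.73), and higher in the cortex were Rora (-1.35) and Rgs16 (-0.47). The call of Rgs16 was lost when cortical sample 1, 2, 3, 4 or 5 or hippocampal sample 1, 3 or 5 was left out (adjusted p = 0.0526 to 0.0946). Rgs16 also lost its call without a trend of the variance with the level (adjusted p = 0.0555) and with equal totals (adjusted p = 0.0761). In each of these cases the count in the cortex was 1 instead of 2. Tcf7l2, the defining thalamic factor, was at 117, 119, 118, 138 and 116 in the cortex and 142, 272, 125, 141 and 145 in the hippocampus, with the highest value in hippocampal sample 2, and did not pass (0.38, adjusted p = 0.115). How much tissue from neighbouring regions the samples held was not tested.

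Of 31 ionotropic glutamate receptor genes and auxiliary subunits, 12 were higher in the hippocampus, 12 were higher in the cortex and 7 did not pass (median -0.10). The largest difference was that of Shisa6, an auxiliary subunit that keeps AMPA receptors from desensitizing, at 333, 409.7, 321, 399 and 325 in the cortex and 4309, 6037, 6311, 5389.7 and 5817 in the hippocampus. It was 15.6-fold higher in the hippocampus (3.95 ± 0.11, SE, adjusted p = 7.74e-12). The AMPA receptor subunits were divided, with Gria1 at 8644, 9142, 7765, 8057 and 9145 in the cortex and 27977, 29691, 28836, 24347 and 26961 in the hippocampus. All hippocampal values of Gria1 were above those of the cortex (1.69 ± 0.07, SE, adjusted p = 2.28e-10), Gria2 was higher there by a small amount with overlapping groups (0.31), and Gria3 and Gria4 were higher in the cortex (-0.59 and -1.20). The call of Gria2 was lost when cortical sample 1, 4 or 5 or hippocampal sample 2, 3 or 5 was left out (adjusted p = 0.0554 to 0.081). Gria2 also lost its call without a trend of the variance with the level (adjusted p = 0.067). Among the auxiliary subunits, Cnih2, a cornichon, and Cacng8, also called gamma-8, were higher in the hippocampus (1.40 and 1.19). The stargazin gene Cacng2 and its relative Cacng3 were higher in the cortex (-1.05 and -1.69), as was Gsg1l, which slows AMPA receptor recovery (-1.85). Of the NMDA receptor subunits, the obligatory Grin1 was slightly higher in the cortex (-0.24), Grin2a was higher in the hippocampus with overlapping groups (0.37), and Grin2b did not pass (0.09, adjusted p = 0.6). Grin2b was called without hippocampal sample 1 (0.24, adjusted p = 0.00739) and without hippocampal samples 1 and 4 together (0.30, adjusted p = 0.000469). Of the kainate receptor subunits, Grik3 was higher in the cortex (-1.03), Grik4 and Grik2 were higher in the hippocampus (1.28 and 0.46), and Grik1 and Grik5 did not pass (0.04 and -0.10). Of 7 metabotropic receptors, 2 were higher in the hippocampus, 3 were higher in the cortex and 2 did not pass (median -0.13). The group I receptor Grm5 was among those higher in the hippocampus, with overlapping groups (0.57). Grm8 (-1.82), Grm4 (-1.003) and Grm3 (-0.97) were higher in the cortex.

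Of 17 genes of GABA receptors, 5 were higher in the hippocampus, 9 were higher in the cortex and 3 did not pass (median -0.24). Gabra5, the alpha subunit of extrasynaptic receptors of pyramidal cells, was at 1563, 1593, 1437, 1415 and 1311 in the cortex and 5679.7, 5465, 5792, 4280.4 and 4997 in the hippocampus. It was 3.58-fold higher in the hippocampus (1.83 ± 0.08, SE, adjusted p = 1e-09), and Gabra2 was also higher there (0.75). The alpha subunit Gabra3 was higher in the cortex (-1.58), and Gabra4 did not pass (-0.18, adjusted p = 0.0858). Gabra4 was called with the sample number as a block (-0.18, adjusted p = 0.0426) and without hippocampal sample 2 (-0.21, adjusted p = 0.0474). Gabrd, the delta subunit of tonic inhibition, was at 1653 ± 126 in the cortex and 589 ± 124 in the hippocampus (-1.51 ± 0.11, SE, adjusted p = 1.29e-07). Both subunits of the metabotropic GABA receptor, Gabbr1 and Gabbr2, were higher in the cortex (-0.24 and -0.48).

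Of 63 receptors for amines, peptides, steroids and related ligands, 22 were higher in the hippocampus, 26 were higher in the cortex and 15 did not pass (median -0.14, and -0.01 without hippocampal sample 1). Besides Cckbr, the alpha-1B adrenergic receptor Adra1b was at 733, 868, 667, 762 and 789.9 in the cortex and 75.9, 101, 54.95, 74.1 and 60.5 in the hippocampus. Cortical values were higher throughout (-3.39 ± 0.15, SE, adjusted p = 5.91e-10). The serotonin receptors were divided, with Htr2a and Htr5a higher in the cortex (-1.51 and -1.14) and Htr4, Htr2c and Htr1a higher in the hippocampus (3.61, 2.22 and 1.15). Of the histamine receptors, Hrh1, Hrh2 and Hrh3 were all higher in the cortex (-2.19, -1.59 and -1.50). Npy2r, a presynaptic receptor of neuropeptide Y, was at 57.7, 69.7, 55.8, 49.8 and 57.9 in the cortex and 1469.8, 1621, 1656, 1290.4 and 1484 in the hippocampus. It was 25.9-fold higher in the hippocampus (4.67 ± 0.10, SE, adjusted p = 2e-12), whereas Npy1r did not pass (-0.14, adjusted p = 0.2). Npy1r was called without hippocampal sample 2 (-0.21, adjusted p = 0.0369). Of the dopamine receptors, Drd5 was higher in the hippocampus (3.19), and of the muscarinic receptors Chrm5 was higher there (4.37), Chrm2, Chrm3 and Chrm4 were higher in the cortex (-1.25, -0.54 and -1.07) and Chrm1 did not pass (0.04). The corticosteroid receptors differed in opposite directions. Nr3c2, the mineralocorticoid receptor, was at 932, 879.9, 851, 874 and 829 in the cortex and 4372, 5093, 5037, 3663 and 4498 in the hippocampus, with no overlap (2.37 ± 0.08, SE, adjusted p = 6.98e-11). Nr3c1, the glucocorticoid receptor, was at 3498 ± 181 in the cortex and 2158 ± 349 in the hippocampus and was higher in the cortex (-0.71 ± 0.10, SE, adjusted p = 4.76e-05). Thra was higher in the hippocampus and Thrb in the cortex (0.56 and -1.11), both receptors of thyroid hormone.

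Of 42 neuropeptides and secreted ligands, 13 were higher in the hippocampus, 21 were higher in the cortex and 8 did not pass (median -0.41). Bmp3, a secreted antagonist within the bone morphogenetic protein family, was at 959.9 ± 172 in the cortex and 113 ± 10.03 in the hippocampus (-3.06 ± 0.12, SE, adjusted p = 2.03e-10), and Adcyap1, the neuropeptide PACAP, was higher in the cortex (-2.60). In the other direction, Ntf3, the neurotrophin of the receptor TrkC, was at 15.5, 9.85, 9.54, 8.48 and 9.85 in the cortex and 219.8, 147, 130.00, 103 and 168 in the hippocampus. The groups were far apart (3.71 ± 0.23, SE, adjusted p = 1.7e-08). Nts, neurotensin, and Tgfb2, a transforming growth factor, were higher in the hippocampus (4.62 and 2.39). Bdnf, the neurotrophin of TrkB, was at 823 ± 112 in the cortex and 1023 ± 59.6 in the hippocampus and was higher in the hippocampus with overlapping groups (0.32, adjusted p = 0.00925). The call of Bdnf was lost in 1 fit of all 9 groups (0.32, adjusted p = 0.513). The neuronal pentraxins were divided, with Nptx1 higher in the hippocampus (0.91), Nptx2 higher in the cortex (-1.31) and their receptor Nptxr not passing (-0.03).

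Of 51 genes of the Wnt pathway, in which secreted ligands bind Frizzled and Lrp receptors and stabilize beta-catenin, 9 were higher in the hippocampus, 22 were higher in the cortex and 20 did not pass (median -0.17). Without hippocampal sample 1 the median was -0.10, with 12 genes higher in the hippocampus and 22 in the cortex. The ligands Wnt9a, Wnt10a, Wnt10b, Wnt2b and Wnt4 were higher in the cortex (-1.64, -2.36, -2.27, -2.95 and -1.03), as were the enhancer Rspo1 and the secreted Dkkl1 described above. Wnt9a was at 631, 547, 530.2, 463 and 443 in the cortex and 215, 208, 158, 121 and 148 in the hippocampus. Its groups did not overlap (-1.64 ± 0.15, SE, adjusted p = 1.27e-06). Wnt7a, Wnt2 and Wnt5a were higher in the hippocampus by less than 1 (0.65, 0.79 and 0.43), and Wnt7b did not pass (0.18). Wnt7b was called with equal totals (0.26, adjusted p = 0.0321) and without cortical sample 2 (0.25, adjusted p = 0.0224). The call of Wnt5a was lost when cortical sample 2, 3 or 5 or hippocampal sample 2 or 3 was left out (adjusted p = 0.0554 to 0.0683). Among the receptors, Fzd3, Fzd1, Fzd2 and Fzd10 were higher in the cortex (-0.73, -0.53, -0.39 and -1.23) and Fzd7 and Fzd8 in the hippocampus (1.08 and 0.46). The call of Fzd2 was lost when cortical sample 1, 3, 4 or 5 or hippocampal sample 2, 3 or 5 was left out (adjusted p = 0.0564 to 0.126). Fzd2 also lost its call without a trend of the variance with the level (adjusted p = 0.075), with median-of-ratios factors (adjusted p = 0.0503), with equal totals (adjusted p = 0.114) and without the filter on low values (adjusted p = 0.0503). Inside the cell, Apc, a part of the complex that destroys beta-catenin, was higher in the cortex (-0.82), and Ctnnb1, beta-catenin, and Nkd2, an inhibitor of Dishevelled, were higher in the hippocampus (0.39 and 2.04). The target gene Axin2 was at 967 ± 67.3 in the cortex and 812 ± 71.8 in the hippocampus and was slightly higher in the cortex (-0.25, adjusted p = 0.0147), a call that was lost with equal totals (-0.18, adjusted p = 0.0927).

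Postsynaptic scaffolds were mostly higher in the cortex, by small amounts. Of 23 tested, 3 were higher in the hippocampus, 14 were higher in the cortex and 6 did not pass (median -0.35). Shank3, the scaffold that the series is about, was at 6985, 7519, 8365, 8717 and 8437 in the cortex and 7799, 7748, 8468, 7566 and 8139 in the hippocampus. The groups overlapped, and Shank3 did not pass (-0.01 ± 0.06, SE, adjusted p = 0.938), with a sign that depended on the normalization (0.12, adjusted p = 0.123 after quantile normalization). Shank1 was at 25393 ± 2959.99 in the cortex and 15748 ± 2127 in the hippocampus (-0.69 ± 0.10, SE, adjusted p = 8.27e-05) and Shank2 was at 9212 ± 1101 in the cortex and 6554 ± 679.4 in the hippocampus (-0.49 ± 0.09, SE, adjusted p = 0.00053), both higher in the cortex. Of the Homer scaffolds, Homer1 was higher in the cortex (-1.15), Homer2 did not pass (-0.17, adjusted p = 0.277) and Homer3 was higher in the hippocampus (3.21). Camk2b, the beta subunit of calcium/calmodulin kinase II, was at 20259 ± 885 in the cortex and 37197 ± 2742 in the hippocampus (0.87 ± 0.06, SE, adjusted p = 4.48e-08), whereas the alpha subunit Camk2a did not pass (-0.08, adjusted p = 0.312).

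Of 53 synaptic adhesion genes, 13 were higher in the hippocampus, 28 were higher in the cortex and 12 did not pass (median -0.30, -0.21 without hippocampal sample 1 and -0.15 without samples 1 and 4). Igsf9b, an adhesion protein of inhibitory synapses, was at 6988, 7457, 6959, 9554 and 8443 in the cortex and 1135, 1625, 1606, 1678 and 1832 in the hippocampus. It was 5.004-fold higher in the cortex (-2.33 ± 0.12, SE, adjusted p = 3.51e-09), and Cbln2, a secreted cerebellin that bridges neurexins, was also higher there (-2.82). The leucine-rich repeat proteins Lrrtm1 and Lrrtm3 differed in opposite directions (1.29 and -1.57), and Lrrtm2 and Lrrtm4 followed Lrrtm3 and Lrrtm1 with smaller values (-0.43 and 0.33). The call of Lrrtm4 was lost when cortical sample 2, 4 or 5 or hippocampal sample 1, 2 or 3 was left out (adjusted p = 0.0708 to 0.0925). Lrrtm4 also lost its call without a trend of the variance with the level (adjusted p = 0.0685). The netrin-G proteins Ntng1 and Ntng2 were both higher in the hippocampus (1.34 and 0.71). The neuroligins differed little, with Nlgn2 at -0.30 and Nlgn1 and Nlgn3 at 0.07 and 0.05, neither of which passed. Nlgn1 was called without hippocampal samples 1 and 4 together (0.19, adjusted p = 0.0175). Of 25 cadherins and protocadherins, 8 were higher in the hippocampus, 14 were higher in the cortex and 3 did not pass (median -0.31). Pcdh20 was at 423, 442, 415, 437 and 375 in the cortex and 3554, 4329.6, 4515, 3687 and 4030.1 in the hippocampus. It was 9.62-fold higher in the hippocampus (3.26 ± 0.08, SE, adjusted p = 3.02e-12), where Cdh9, a cadherin of mossy fiber synapses, was also higher (1.61). On the cortical side were Cdh7 (-1.81), Cdh6 (-1.79), Pcdh7 (-1.73), Cdh22 (-1.62), Cdh18 (-1.53) and Pcdh15 (-1.37).

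More guidance genes were higher in the hippocampus than in the cortex. Of 57 tested, 27 were higher in the hippocampus, 18 were higher in the cortex and 12 did not pass (median 0.23). The neuropilins, receptors of class 3 semaphorins, were both higher in the hippocampus, with Nrp2 at 520.3, 649, 618, 607 and 721 in the cortex and 2204, 2801, 2613, 2483 and 2609 in the hippocampus. The groups did not overlap (2.03 ± 0.09, SE, adjusted p = 5.87e-10), and Nrp1 differed by 1.85. Slit1, a repellent that acts on Robo receptors, was at 1550.4 ± 134 in the cortex and 7396 ± 559 in the hippocampus (2.25 ± 0.07, SE, adjusted p = 2.89e-11), and Slit3 was higher in the hippocampus (0.97) while Slit2 did not pass (0.30). Slit2 was called with equal totals (0.37, adjusted p = 0.0223), with the sample number as a block (0.30, adjusted p = 0.0066), without cortical sample 2 (0.40, adjusted p = 0.0119), without hippocampal sample 1 (0.40, adjusted p = 0.00749) and without hippocampal samples 1 and 4 together (0.38, adjusted p = 0.0184). Sema3a, a repellent that binds Nrp1, was at 691, 589.7, 626, 671 and 627 in the cortex and 73.6, 79.8, 67.6, 110.3 and 84.5 in the hippocampus, higher in the cortex (-2.95 ± 0.12, SE, adjusted p = 4.17e-10), while Sema3e and Sema5a were higher in the hippocampus (1.47 and 1.85). Among Eph receptors, Epha3, Epha4, Epha5, Epha6 and Epha7 were higher in the hippocampus (1.19, 0.73, 0.63, 1.83 and 1.58) and Epha8, Ephb3 and Ephb6 in the cortex (-1.49, -1.07 and -1.33). Their ligands Efna5 and Efnb3 differed by -2.83 and 1.85, and Plxnd1, the plexin that binds Sema3e, was higher in the cortex (-2.03).

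Voltage-gated potassium channels were mostly higher in the cortex. Of 38 genes, 10 were higher in the hippocampus, 23 were higher in the cortex and 5 did not pass (median -0.50). Kcnh4, of the ether-a-go-go family, was at 820.1, 818, 1014, 874 and 772 in the cortex and 106, 81.6, 77.8, 73.9 and 67.2 in the hippocampus. It was 10.6-fold higher in the cortex (-3.40 ± 0.12, SE, adjusted p = 1.06e-10), and the relatives Kcnh1, Kcnh3, Kcnh5 and Kcnh7 were also higher there (-1.02, -1.13, -2.53 and -1.92). In contrast, Kcnd2, Kcnd3 and Kcnip2, subunits of A-type channels, were higher in the hippocampus (0.47, 0.39 and 0.95), as was Kcng2, a silent modulatory subunit (2.22). Of 27 sodium, calcium and HCN channel genes, 6 were higher in the hippocampus, 19 were higher in the cortex and 2 did not pass (median -0.35). The beta subunits of sodium channels went apart, with Scn4b higher in the cortex (-2.40) and Scn3b at 2532 ± 211 in the cortex and 7689 ± 515 in the hippocampus (1.60 ± 0.07, SE, adjusted p = 3.79e-10). The T-type calcium channels did likewise, with Cacna1h higher in the hippocampus (1.51) and Cacna1g and Cacna1i higher in the cortex (-0.87 and -1.03). Hcn2, Hcn3 and Hcn4 were higher in the cortex (-0.50, -0.88 and -0.85).

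Of 31 activity-regulated genes, 5 were higher in the hippocampus, 18 were higher in the cortex and 8 did not pass (median -0.84). Egr1, an immediate early zinc finger factor, was at 13621, 7909, 9921, 12974 and 14409 in the cortex and 3145, 2589.8, 3008, 2362 and 2987 in the hippocampus. It was 4.18-fold higher in the cortex with no overlap (-2.03 ± 0.15, SE, adjusted p = 7.77e-08), and Egr2 and Egr3 were also higher there (-2.52 and -1.12). Fos was at 1664, 514, 531, 738 and 1230.1 in the cortex and 414, 145, 157, 193 and 349.7 in the hippocampus. Cortical values of Fos varied several-fold between samples but stayed above the hippocampal values (-1.86 ± 0.36, SE, adjusted p = 0.000793). Arc, which regulates AMPA receptor trafficking, was at 15119, 4396, 3366, 9868 and 15659.7 in the cortex and 5075, 2946, 2143, 3362 and 4409.8 in the hippocampus, with overlapping groups (-1.24 ± 0.39, SE, adjusted p = 0.0216). The call of Arc was lost when cortical sample 1, 4 or 5 or hippocampal sample 3 was left out (adjusted p = 0.0502 to 0.059). Arc also lost its call without a trend of the variance with the level (adjusted p = 0.0533). Of the Nr4a nuclear receptors, Nr4a1 was higher in the cortex (-1.34) and Nr4a2 and Nr4a3 in the hippocampus (1.98 and 1.45). Jun, the partner of Fos in AP-1, was at 859.9 ± 127 in the cortex and 2869 ± 172 in the hippocampus and was higher in the hippocampus (1.75 ± 0.09, SE, adjusted p = 3.82e-09), while Junb did not pass (-0.51, adjusted p = 0.194). Junb was called with the sample number as a block (-0.51, adjusted p = 0.0109).

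Of 42 extracellular matrix genes, 13 were higher in the hippocampus, 13 were higher in the cortex and 16 did not pass (median 0.17, and 0.07 without hippocampal samples 1 and 4). The called genes were 31% in each direction, against 21% and 21.3% of all genes. Lamb1, a laminin chain, was higher in the hippocampus (2.22). Thbs4, a thrombospondin, was at 38.7, 18.5, 60.9, 39.7 and 36.9 in the cortex and 448, 285, 423, 534 and 363 in the hippocampus. It was higher in all hippocampal samples (3.43 ± 0.26, SE, adjusted p = 1.25e-07), and Tnc, tenascin C, was also higher there (1.56). Of 20 genes of retinoid and lipid signalling, 9 were higher in the hippocampus, 6 were higher in the cortex and 5 did not pass (median 0.41). The summed level of that list was 50579.7, 56157, 62458, 115683 and 67088 in hippocampal samples 1 to 5, highest in sample 4, and the median was 0.45 without sample 1 and 0.15 without samples 1 and 4. Cyp26b1, which degrades retinoic acid, was at 94.4 ± 30.99 in the cortex and 375 ± 31.9 in the hippocampus (2.03 ± 0.17, SE, adjusted p = 3.79e-07), whereas Aldh1a3, which makes it, was higher in the cortex (-1.72). Lpl, lipoprotein lipase, was higher in the hippocampus (1.95), and Plcb4, a phospholipase C, in the cortex (-1.81).

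Of 77 cytosolic ribosome genes, 29 were higher in the hippocampus and 0 in the cortex, none by 1 or more, with a median of 0.22. Rplp0, a protein of the ribosomal stalk, was at 3144, 2689.6, 3025, 2919.6 and 3073 in the cortex and 4607, 3427, 3803, 4124 and 3831 in the hippocampus. Sample 1 of the hippocampus was highest (0.41 ± 0.07, SE, adjusted p = 0.000518). Without that sample, in which short transcripts stood higher, the median of the list was 0.14 and 28 genes were higher in the hippocampus and 1 in the cortex. Without hippocampal sample 2, 44 ribosomal genes were higher in the hippocampus, and with equal totals and with the sample number as a block these were 45 and 47. In HT and HM mice, the median of the ribosomal list was 0.08 and 0.09. Of 73 genes of the respiratory chain, 9 were higher in the hippocampus and 0 in the cortex (median 0.11), and without hippocampal sample 1 these were 4 and 0 (median 0.02). The share higher in the hippocampus was 12.3% beside the 21% of all genes, and the medians were 0.00 in HT and 0.01 in HM mice. That share was 26% (19 genes) with equal totals, 23.3% (17 genes) with the sample number as a block and 26% (19 genes) in 1 fit of all 9 groups, where 27.2%, 23.3% and 23.4% of all genes were higher in the hippocampus, so that in the fit of all 9 groups the share was above that of all genes. The count was 3 without a trend of the variance with the level or without hippocampal samples 1 and 4, and 2 to 4 without cortical sample 2, 3, 4 or 5.

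The comparison was repeated in the 5 cortical and 5 hippocampal samples each of Shank3-HT and Shank3-HM mice, which share no sample with the WT comparison. The targeted gene Shank3 was at 5748, 6607, 6089.8, 6422 and 5822 in the cortex and 5611, 6103, 5894, 5713 and 6108 in the hippocampus of HT mice, and at 4066, 4446, 4171, 3689 and 3897 in the cortex and 3755, 4019.6, 3678, 3866 and 3684 in the hippocampus of HM mice. All HT samples were below the WT samples of their region, and all HM samples were below the HT samples. In HT mice, 8030 genes (48.3%) differed between the regions, and in HM mice 6412 (38.6%). Of the 7031 genes called in WT mice, 6077 (86.4%) were called in the same direction in HT mice and 5373 (76.4%) in HM mice, and 5091 in both. No gene called in WT mice was called in the opposite direction in either, and 56 and 72 had a difference of opposite sign that was not called. Of the 1836 genes with a WT difference of at least 1, 1710 (93.1%) were called in the same direction in HT mice and 1662 (90.5%) in HM mice. Dsp, Cckbr and Ttr were named for their large WT difference, so that the sizes in WT and mutant mice are not compared on equal terms. Dsp differed by 7.69 in HT and 7.62 in HM mice, compared with 9.50 in WT mice, and Cckbr by -3.25 in HT and -3.08 in HM mice, compared with -3.56. Ttr varied more, at 6.85 in HT and 9.94 in HM mice, compared with 10.05, and the median of the choroid plexus list was 3.02 and 4.36, compared with 4.07. In the cortex of HT mice Ttr was at 3.94, 6.96, 932, 6.62 and 104, so that the third sample stood far above the others, and in the hippocampus it was at 987, 30349, 591, 1181 and 28261. In HM mice it was at 9.36, 94.4, 165, 11.1 and 2.81 in the cortex and 39190.4, 39200.4, 55088, 16337 and 5006 in the hippocampus. The hippocampal values varied widely within each genotype.

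Whether the difference between the regions depended on the genotype was tested directly, by the interaction of region and genotype in the 30 cortical and hippocampal samples. No gene passed an adjusted p value under 0.05 in limma's test, for HT against WT or for HM against WT (0% of 16618 in both). At an unadjusted p value under 0.05 there were 577 genes for HT and 723 for HM mice, where 831 of 16618 would be 5%. With the cortex of HM sample 4 left out, Dsp passed for HM mice (-2.32 ± 0.39, SE, adjusted p = 0.0388), a smaller region difference than in WT mice. Dsp in the cortex was at 5.69, 4.31, 8.21, 3.78 and 6.08 in HT and 19.6, 8.64, 5.95, 1.06 and 4.93 in HM mice, where the hippocampus was at 1009, 1277, 1480.05, 1344 and 1637 and 1424, 1297, 1230.2, 1594 and 1366. All cortical values of Dsp were far below the hippocampal values, and those of HT mice were above those of all WT cortical samples. A test that misses the threshold does not show that the region differences are equal in the 3 genotypes.

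**Figure D5:**
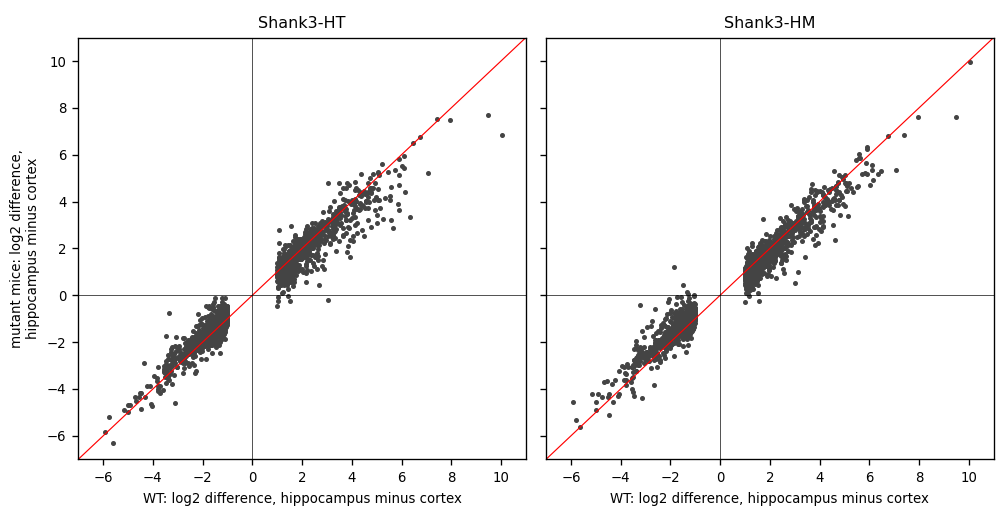
Difference between hippocampus and cortex in Shank3-HT mice (left) and Shank3-HM mice (right) on the vertical axes against the difference in WT mice on the horizontal axes (log2 scale), for the 1836 genes called in WT mice with a difference of at least 1. The red line marks equality, and 6 genes in HT and 8 in HM mice have the opposite sign. Genes were selected by their WT difference, so that the sizes in WT and mutant mice are not compared on equal terms.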

How the data were processed

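Values of 18135 genes in 45 samples were used as deposited. Per the labels and the methods of the study, the authors prepared stranded mRNA libraries, estimated counts with Salmon 1.1.0 on GRCm38, imported them with tximport and normalized them with DESeq2 in R. The submitters' processing notes give DESeq2 1.26.0 and R 3.6.2, whereas the methods of the study give other versions of both. The deposited signal values are therefore normalized counts with decimals. Whole reads could not be recovered, because only 10.6% to 23.7% of low values lay within 0.05 of a whole multiple of a common step. That was the largest share over several candidate steps per sample. By chance 10.0% would for a single step, and more for the largest share. Tests of counts were therefore not applied, and depth is unknown. No column was left unmapped, and no columns were identical.

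Over the 10 WT samples, genes whose mean reached 10 were tested on log2(value + 1) with limma 3.58.1 (moderated statistics whose prior variance followed the mean level) in R 4.3.3, with Benjamini-Hochberg adjustment and a threshold of 0.05. The study gives 5 mice for each region and genotype, and whether samples of the same number in different regions came from the same mouse is not given in the sources used here. On simulated data with 200 changed genes among 16618, 69% of changes of 1 and 53% of changes of 0.5 were recovered, with 4 false among 126 calls. In the real samples 42.3% of genes were called, and hippocampal sample 1 held a shift shared by many genes. The simulated noise was independent between genes, so that these rates do not carry over to this comparison. Symbols and positions are from GENCODE M21, and promoters are from RefSeq. Python 3.11.15, numpy 2.4.6, pandas 2.3.3 and matplotlib 3.10.9 were used. The compared groups and the 39 gene lists, written from general knowledge, were chosen with earlier results of these data known, so that lists are described by counts and medians without a test. Named were, per direction, the 15 genes with the largest difference among those with an adjusted p value under 0.05, no overlap and a mean of at least 100 in the higher region, members of the lists called at a difference of at least 1 (up to 6 per list), members of a family side by side, the first markers of each list, and Shank1, Shank2 and Shank3. Other genes in the text were chosen after their values were seen. Alternatives were other normalizations, filters, pseudocounts and models, and leaving out each sample in turn. The sample numbers shared by the regions were checked as pairs. Deviations from the group means correlated by 0.0329 to 0.219 over genes between samples of the same number, above 0.1 in 2 of 5 pairs. Between samples of different numbers the correlation was -0.135 to 0.0765. Because the pairing is not given, the main test did not treat the numbers as pairs. If they mark the same mice, that test ignores the pairing, and a fit with the number as a block is given below. The striatum samples entered only the alternative fit of all 9 groups, and some genes are not reported here.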

Additional observations from a re-analysis of the deposited data

Results flagged for a closer look

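A sample lay far from the other 4 of its group when its gap to the nearest of them, divided by the range of the group, was above Dixon's critical value of 0.71. Among 608 groups of 5 samples (cortex and hippocampus, for 304 named genes), 42 (6.91%) had such a sample, where chance gives about 1 in 20 groups. Of these, 18 were in hippocampal sample 1 and 8 in hippocampal sample 4. All values are normalized counts, followed by that of the nearest other sample in brackets. Hippocampal sample 1 was highest for Crh at 30.8 (20.98), Crym at 6029 (4156), Ctnnb1 at 13227 (11739), Egr2 at 106 (48.8), Gabrd at 808 (565) and Kcnh3 at 2993 (2368). Hippocampal sample 1 was also highest for Lamp5 at 1017 (844) and Thra at 24027 (21030.1). Hippocampal sample 1 was lowest for Apc at 6384 (9649), Fzd3 at 1834 (2556), Mef2d at 5674 (6396), Nrp1 at 1407 (1819), Pcdh15 at 221 (444) and Pdgfra at 1359 (1682). Hippocampal sample 1 was also lowest for Rasgrf2 at 2099 (2748), Shank1 at 12087 (15956), Slit3 at 1162 (1632) and Zbtb20 at 6273 (13471). Hippocampal sample 4 was highest for Coch at 402 (215), Eomes at 81.7 (22.4), Folr1 at 804 (265), Foxj1 at 596 (402), Igfbp2 at 2482 (1066) and Otx2 at 519.8 (199.9). Hippocampal sample 4 was also highest for Ttr at 113040.0 (32301). Hippocampal sample 4 was lowest for Gabbr1 at 15719 (18054). Hippocampal sample 2 was highest for Tcf7l2 at 272 (145). Cortical sample 1 was highest for Ntf3 at 15.5 (9.85). Cortical sample 2 was highest for Lct at 73.2 (30.8), Mfrp at 10.8 (4.74), Oprk1 at 189 (104), Spink8 at 19.5 (11.7), Tmem212 at 1.01 (0) and Trbc2 at 478 (368). Cortical sample 3 was highest for Cldn2 at 7.03 (1.98). Cortical sample 4 was highest for Fzd3 at 4483 (4100.5), Otx2 at 1.52 (0) and Tcf7l2 at 138 (119). Cortical sample 5 was highest for Axin2 at 1086 (954), Cdh7 at 745 (621), Cyp26b1 at 148 (90.8) and Rtl3 at 1.102 (0). In hippocampal sample 1 the longest transcripts stood lower and the shortest higher than in the other samples, and its part in these values was not tested. In hippocampal sample 4, all 26 choroid plexus genes were at their highest, and its part in the values of Eomes, Coch and Gabbr1 was not tested.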

How the results depend on the processing

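The count of 7031 called genes ranged from 5592 to 7796 under other normalizations, filters, pseudocounts and models, 6441 to 7437 with each sample left out in turn, and was 7078 without hippocampal samples 1 and 4, the only alternative chosen after the data were seen. Tested against a difference of 1 instead of 0, 826 genes were called, 460 higher in the hippocampus and 366 in the cortex, because that test asks for more. With a mean of at least 100, differences of at least 1 were called for 417 genes in the hippocampus and 472 in the cortex, as fewer genes were tested. With the sample number as a block, 7782 genes were called in WT, 8259 in HT and 5967 in HM mice, and none passed for the difference by genotype. Whether samples of the same number came from the same mouse is not known, and 4 of 5 cortical samples correlated best with the hippocampal sample of their own number. Calls for the difference by genotype were 0 in HT mice with any sample left out and 0 to 1 in HM mice. Of 6650 values of 304 named genes under 22 alternatives, 6390 kept their direction and side of the threshold. Past the threshold and lost were 191, most of them in the test against 1, and 31 were gained. The 11 genes that changed sign had not passed in the report: with quantile normalization Camk2a (0.10), Foxc1 (-0.0005), Grik1 (-0.01), Nptxr (0.02), Shank3 (0.12) and Sst (0.04), with equal totals Nes (0.03), Nptxr (0.05), Shank3 (0.07) and Sst (0.04), without hippocampal samples 1 and 4 Shank3 (0.02), and, as a range with single samples left out, C1ql3 (-0.05 to 0.07), Foxc1 (-0.02 to 0.23), Grik1 (-0.02 to 0.11), Hbb-bs (-0.28 to 0.02), Nes (-0.19 to 0.07), Nptxr (-0.07 to 0.004), P2ry12 (-0.04 to 0.10), Shank3 (-0.06 to 0.02), Slc1a3 (-0.01 to 0.04) and Sst (-0.10 to 0.01). Of 1716 counts of list members under these alternatives, 106 moved by over 1.5 times, 48 of them outside the test against 1. The cytosolic ribosome list moved from 29 genes higher in the hippocampus to 45 with equal totals, 47 with the block and 44 without hippocampal sample 2, and the respiratory chain list from 9 to between 2 and 19 outside the test against 1. Counts of the mossy cell, claustrum, adult neurogenesis, ependymal and striatal lists fell with a mean of at least 100, where fewer of their genes were tested. For other changes the cause was not tested. The depth per sample is unknown, so that low values, such as those near 0 in the cortex, have no counting error here, and 5 samples per region limit the precision.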
